A study of Sus scrofa with 8 samples.

Results

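The proteasome genes were followed in the olfactory epithelium of newborn pigs with and without CFTR, the epithelial anion channel whose loss causes cystic fibrosis. Members were taken by symbol, as the genes whose name starts with PSM followed by a letter from A to G and a number. This gave 48 of the 25880 pig genes in the count table, 43 paired with their symbol by identifier and 5 by position (PSMA6, PSMB6, PSMD2, PSMG2 and PSMG4). PSMC3IP, a meiotic recombination factor, and PSME3IP1, a partner of PSME3, are among the 48 by name but encode no subunit and are described apart. PSMB5 and PSMG1 were not matched to an identifier of their own and were not analysed here.

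The 8 libraries were mRNA sequencing of dissected, frozen olfactory epithelium, made from 4 wild-type and 4 CFTR-knockout animals. Values by library are always given in 1 order, that of the piglet numbers 5, 9, 12 and 23 for the wild type and 6, 18, 20 and 21 for the knockout. The labels give no agent, litter, sex or strain, and describe each library as 1 newborn piglet, so the spread is that between animals. The knockout is of the whole animal as far as the labels say, and every cell type of the tissue contributed RNA. The study asked how the loss of CFTR changes the olfactory tissue.

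The proteasome is the protease complex that degrades proteins tagged with ubiquitin. Its 20S core is a barrel of outer alpha rings (PSMA genes), which gate entry, and inner beta rings (PSMB genes), of which PSMB5, PSMB6 and PSMB7 carry the active sites. The 19S regulator caps the core: its ATPases (PSMC) unfold the substrate, and its non-ATPase subunits (PSMD) bind and remove ubiquitin. Interferon induces the immunosubunits PSMB8, PSMB9 and PSMB10, which replace the active subunits PSMB5, PSMB6 and PSMB7, and the activator PSME1 with PSME2. The immunoproteasome is known for making peptides for class I antigen presentation.

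Library totals ranged from 30836904 to 43253395 reads, with the lowest in wild-type piglet 9. CFTR was 34.0 to 56.6 CPM (read counts relative to library size, with library sizes scaled by TMM) in wild-type and 5.24 to 8.37 CPM in knockout piglets. Of the lists of marker genes, all 8 mature olfactory neuron markers matched were expressed (summed CPM 2321 to 3795 in wild-type and 3662 to 4322 in knockout piglets), while OMP was not matched. Knockout piglet 18 stood apart in 6 of 6 bone genes, with 37982 CPM in sum against 775 to 3997 in the other 7 libraries. It was also the highest in 7 of 8 tested leukocyte markers, with a sum of 280 CPM against 74.7 to 96.1 CPM. Knockout piglet 21 was the highest in 7 of 8 interferon-response genes, with a sum of 708 CPM against 259 to 419 CPM.

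No proteasome gene passed the test between genotypes, and most lay slightly lower in knockout piglets. Of 48 members, 46 passed the filter on low counts, and none of these had a Benjamini-Hochberg adjusted p under 0.05 in edgeR's quasi-likelihood test, which called 0.00582% of all 17175 genes tested (CFTR alone). At an unadjusted p under 0.05 there were 5 members lower (10.9%) and 0 higher, beside a background of 5.8% lower and 5.4% higher over all genes. The 5 include PSMC3IP, which encodes no subunit. Without PSMC3IP and PSME3IP1, 4 of 44 members were lower at this threshold (9.09%) and 0 higher. The groups did not overlap in 3 members (6.52%), all lower in knockout piglets, beside 3.36% of all genes lower and 2.45% higher. DESeq2 called 1 member, PSME2, beside 1.28% of all genes, and limma with sample quality weights called 0, beside 0.064%. A negative log2 fold change was found in 36 of the 46 members, beside 48.4% of all genes. The median was -0.13, beside 0.01 over all genes tested. Leaving out PSMC3IP and PSME3IP1, 35 of 44 members had values below 0, and their median was again -0.13. Cell type markers were also unequal between genotypes. Of the neuron markers, 8 of 8 had a positive log2 fold change (median 0.38). Wild-type piglet 5 was the lowest library in 7 of these 8 markers. Without it 2 of the 8 were negative, and the median was 0.28. Of the sustentacular cell markers, 3 of 5 had a negative one (median -0.43), with sums of 2572 to 3045 CPM in wild-type and 2278 to 3341 CPM in knockout piglets. All 8 tested leukocyte markers were positive (median 0.79), with sums of 74.7 to 94.3 CPM in wild-type and 75.2 to 280 CPM in knockout piglets. Without knockout piglet 18 their median was 0.06, with 4 of 8 negative. ITGAM, an integrin of myeloid cells, was 8.07 to 16.1 CPM in wild-type and 16.0 to 25.1 CPM in knockout piglets, a difference of 0.91 ± 0.23 on the log2 scale (adjusted p 0.334 in edgeR and 0.0188 in DESeq2). None of these markers passed the edgeR test, DESeq2 called ITGAM alone among them, and their part in the proteasome values was not tested. Members are read from the same libraries and shifted together between animals, so these counts are not independent observations. In bulk tissue, fewer cells of a type and less RNA per cell cannot be told apart.

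**Figure D1:**
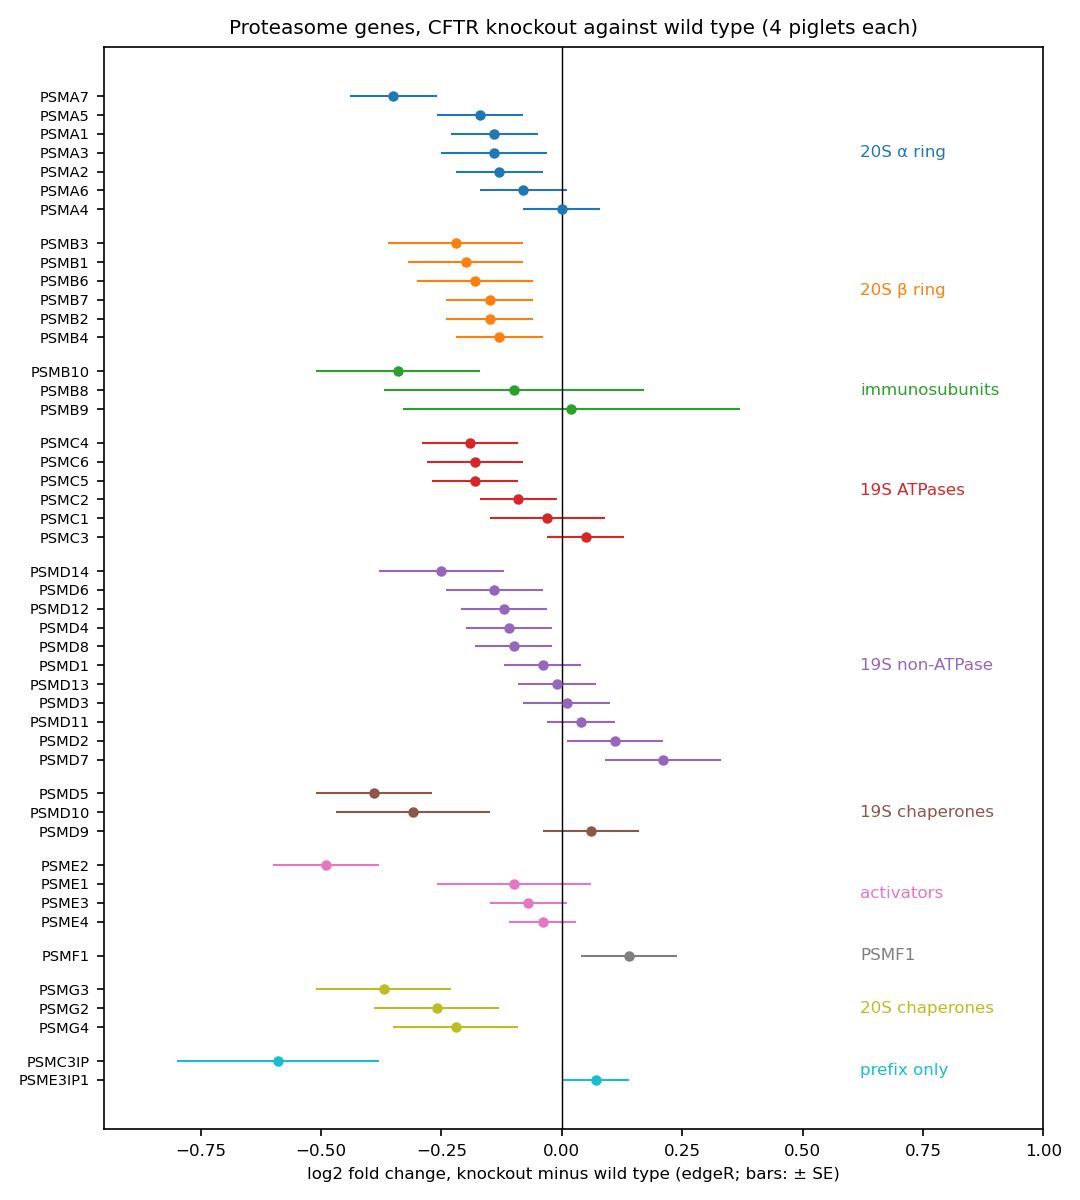
Log2 fold change of knockout against wild-type piglets for the 46 proteasome genes tested, grouped by role; points are edgeR estimates and bars ± SE (4 piglets per genotype). Most points lie between -0.4 and 0.2, left of 0 in 36 genes, with PSMC3IP and PSME2 farthest to the left.

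The alpha ring of the 20S core was tested in 7 genes, of which 6 had a negative log2 fold change (median -0.14), and none passed. PSMA7 (ENSSSCG00000033332, minus strand of chromosome 17 from 61562419 to 61571623 in the table, whose genome build is not given) was the alpha subunit with the smallest p. It was 131, 158, 134 and 166 CPM in the wild type against 116, 117, 107 and 122 CPM in the knockout. Every knockout library thus lay below every wild-type library. The log2 fold change was -0.35 ± 0.09 (SE), with an edgeR adjusted p of 0.349, and the DESeq2 adjusted p was 0.0703. The gene model shares 32.4% of its exon bases with LSM14B on the opposite strand, and whether reads were counted by strand is not given. LSM14B itself had a log2 fold change of -0.02 ± 0.07. The other alpha subunits lay between -0.17 and 0.00, with PSMA4 at 0.00 ± 0.08. PSMA8, the variant of the alpha ring known from testis, had 0 to 2 reads per library and was not tested.

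The beta ring was tested in 6 constitutive genes, all of them with a negative log2 fold change, from -0.22 in PSMB3 to -0.13 in PSMB4, with unadjusted p between 0.108 and 0.190. On the opposite strand, PSMB3 shares 53.3% of its exon bases with PIP4K2B, and PSMB4 35.3% with POGZ. PSMB6, named by position, carries the caspase-like active site. It was 126, 162, 125 and 142 CPM in the wild type and 135, 112, 108 and 135 CPM in the knockout. PSMB7, which carries the trypsin-like site, was 94.9, 114, 92.1 and 104 CPM in the wild type and 93.6, 94.0, 80.1 and 97.5 CPM in the knockout. In both genes the groups overlapped, and the log2 fold changes were -0.18 ± 0.12 and -0.15 ± 0.09 (edgeR adjusted p = 0.544 and 0.534). Without wild-type piglet 9 both were -0.09, and PSMB7 was also -0.09 without knockout piglet 20. PSMB5 lies within a longer gene model (ENSSSCG00000002036) that also covers C7H14orf93, whose symbol it received by position. PSMB5 makes up 16.6% of that model's span, so its 101 to 136 CPM cannot be assigned to PSMB5. PSMB11, the beta subunit of the thymus, had 0 or 1 read per library. A count of 0 allows up to 0.0694 to 0.0973 CPM, depending on the library, and covers counting error only.

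The 20S subunits moved together from piglet to piglet. Summed over the 13 tested genes of both rings, expression was 1313, 1532, 1259 and 1414 CPM in the wild type against 1281, 1194, 1113 and 1359 CPM in the knockout. Wild-type piglet 9 was the highest library in 11 of the 13 genes and knockout piglet 20 the lowest in 10. Over all genes tested, piglet 9 was the highest in 14.7% and piglet 20 the lowest in 13.6%. The sums overlapped between genotypes, since wild-type piglets 5 and 12 lay below knockout piglet 21. The median log2 fold change of the rings, -0.15 with all libraries, was -0.10 without piglet 9 and -0.10 without piglet 20. Without knockout piglet 18, whose bone genes were high, it was -0.14. Piglet 9 had the fewest reads, and the part of depth in its level was not tested.

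**Figure D2:**
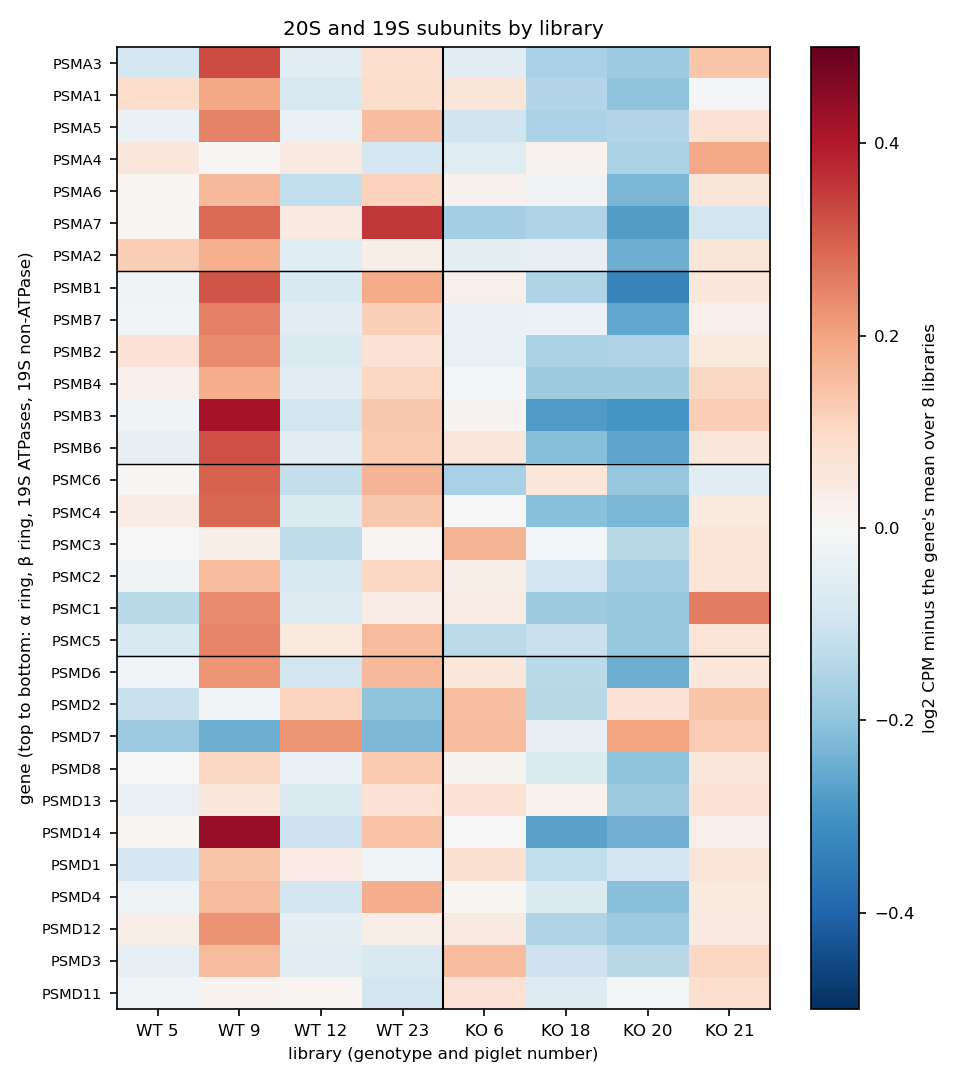
Log2 CPM of the 30 tested subunits of the 20S core and 19S regulator in each library, minus the gene's own mean over the 8 libraries (colour scale from -0.5 to 0.5). The column of wild-type piglet 9 is high in most rows and that of knockout piglet 20 low in most rows, while PSMD7 and PSMD2 do not follow these columns.

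The ATPases of the 19S base, PSMC1 to PSMC6, were negative in 5 of 6 genes, with a median of -0.13, and none passed (smallest unadjusted p 0.0735, in PSMC5). PSMC3 was the member on the higher side, at 0.05 ± 0.08. Of the 11 non-ATPase subunits, 7 were negative, with a median of -0.04. PSMD14, the deubiquitinase of the lid, lay lowest, at -0.25 ± 0.13 (edgeR adjusted p = 0.472). PSMD7, its inactive partner in the lid, lay highest, at 0.21 ± 0.12 (edgeR adjusted p = 0.505). PSMD14 was 66.3, 89.0, 61.3 and 72.8 CPM in the wild type and 65.9, 54.7, 55.8 and 67.0 CPM in the knockout. PSMD7 was 50.4, 48.3, 66.6 and 48.9 CPM in the wild type and 63.6, 55.6, 65.6 and 62.4 CPM in the knockout. Wild-type piglet 9 was thus the highest in PSMD14 and the lowest in PSMD7. PSMD2, the large scaffold of the base, named by position, was at 0.11 ± 0.10, and PSMD11, a scaffold of the lid, varied least of all members, with an SD of 0.06 in log2 CPM over the 8 libraries. Without wild-type piglet 9 PSMD14 was at -0.14, without wild-type piglet 12 PSMD7 was at 0.32, and PSMD2 ranged from 0.06 without wild-type piglet 23 to 0.17 without knockout piglet 18. These 4 genes were singled out after their values were seen. Summed over the 17 genes of the 19S regulator, expression was 1960 to 2231 CPM in wild-type and 1864 to 2143 CPM in knockout piglets. Piglet 9 was the highest in 8 of the 17 genes and piglet 20 the lowest in 12. The median of -0.09 for the 19S genes was -0.04 without wild-type piglet 9 and -0.04 without knockout piglet 20.

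The subunits varied little between animals compared with other genes. The SD of log2 CPM over the 8 libraries had a median of 0.15 over the 20S genes and 0.13 over the 19S genes, beside 0.24 over all genes tested. The median SE of the log2 fold change was 0.09 in both sets, beside 0.16 over all genes. These medians are not matched on expression level, and the subunits are well expressed: each of the 30 genes had at least 1525 reads in every library.

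Levels between genes were compared per length, as RPKM (CPM per 1000 bases of the gene model, mean of 8 libraries). The 13 tested 20S genes lay between 10.7 RPKM in PSMA5 and 89.6 RPKM in PSMB7, and the 19S genes between 14.4 RPKM in PSMD7 and 75.5 RPKM in PSMD4. The ATPases were the most even of the subunit sets, from 20.5 RPKM in PSMC1 to 41.1 RPKM in PSMC5. The length of the gene models limits this comparison, since PSMA5 was given 5527 exon bases and PSMB7 1075. So does their overlap, since PSMD4 shares 41.3% of its exon bases with another model on the opposite strand. The assembly chaperones ranged from 4.47 RPKM in PSMD10 to 26.7 RPKM in PSMG3. All 3 immunosubunits lay below every tested constitutive subunit, at 1.28 RPKM in PSMB9, 1.92 in PSMB10 and 2.86 in PSMB8. The PSMB8 model spans 19915 bases, against 3211 for the RefSeq gene. TAP1 lies within this span, but the PSMB8 model shares no exon bases with another gene model. The PSMB10 model has 5501 exon bases, against a whole RefSeq span of 2700. Some constitutive models are also longer than the RefSeq span, such as PSMB6 (2919 exon bases against 2156) and PSMB4 (5626 against 2366). PSMB10 shares 49.1% and PSMB9 24.6% of the exon bases with other genes. The part of the gene models in the low levels of the immunosubunits was not tested.

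**Figure D3:**
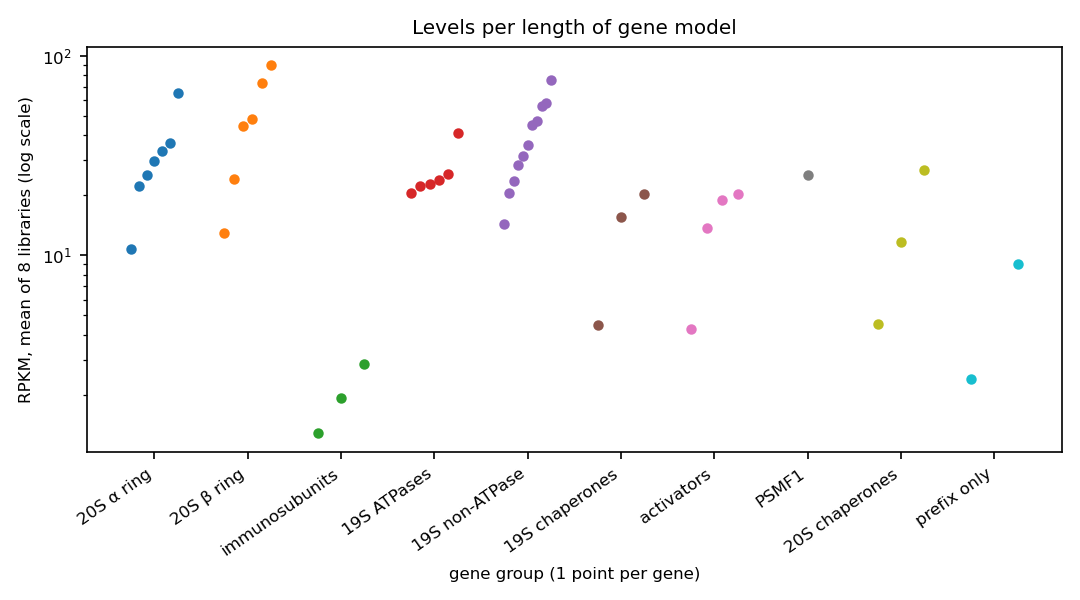
Mean RPKM over the 8 libraries (log scale) of the 46 tested genes by role, 1 point per gene. The 20S and 19S subunits lie above 10 RPKM and the 3 immunosubunits between 1.28 and 2.86 RPKM.

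Immunosubunits were expressed at a low level in both genotypes and did not differ detectably. PSMB8 (ENSSSCG00000026951, minus strand of chromosome 7 from 25053132 to 25073046) replaces PSMB5 and was 7.48, 5.89, 4.55 and 7.66 CPM in the wild type. In the knockout it was 3.51, 7.58, 5.52 and 7.33 CPM. PSMB9 (ENSSSCG00000001463, plus strand of chromosome 7 from 25071712 to 25077233) replaces PSMB6 and was 2.09, 1.77, 1.04 and 1.89 CPM in the wild type and 1.07, 2.31, 1.19 and 2.32 CPM in the knockout. These values rest on 43 to 98 reads per library. For both genes the ranges of the genotypes overlapped almost wholly. PSMB8 had a log2 fold change of -0.10 ± 0.27 and PSMB9 of 0.02 ± 0.35 (edgeR adjusted p = 0.900 and 0.987). The sign of PSMB9 turned with upper-quartile scaling (-0.0037), with limma (-0.10) and when single libraries were left out, so no direction is given for it.

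PSMB10 (ENSSSCG00000031781, minus strand of chromosome 6 from 28540808 to 28548152) replaces PSMB7. It was 12.3, 13.7, 11.6 and 9.54 CPM in the wild type and 7.45, 10.1, 8.53 and 11 CPM in the knockout. The log2 fold change was -0.34 ± 0.17 (edgeR adjusted p = 0.462), and the groups overlapped, since knockout piglets 18 and 21 lay above wild-type piglet 23. Its model shares 49.1% of its exon bases with PSKH1 and CTRL. CTRL is listed at 0 in every library, and PSKH1 on the opposite strand had a log2 fold change of 0.12 ± 0.07.

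The ratio of each immunosubunit to the subunit it replaces was computed per length. PSMB9 was 3.65, 2.41, 1.83 and 2.92% of PSMB6 in the wild type and 1.74, 4.54, 2.41 and 3.75% in the knockout. The mean was 2.70 ± 0.773% in the wild type and 3.11 ± 1.27% in the knockout (SD, n = 4 each). PSMB10 was 2.28 ± 0.338% of PSMB7 in the wild type and 1.99 ± 0.294% in the knockout. Without the length correction these ratios were 1.23 and 1.42% for PSMB9 and 11.7 and 10.2% for PSMB10. Their size thus depends on the lengths of the gene models. The correction is the same factor in every library, so it could not change the order of the genotypes. With each library left out in turn, the PSMB9 means were 2.39 to 2.99% in the wild type and 2.64 to 3.57% in the knockout. The PSMB10 means were then 2.2 to 2.45% in the wild type and 1.91 to 2.13% in the knockout. The ratio of PSMB8 to PSMB5 could not be formed.

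The immunosubunits did not stand apart in knockout piglet 21, the library with high interferon-response genes. MX2, an antiviral GTPase, was 59.3 CPM in this piglet and 6.53 to 24.4 CPM in the other 7, and ISG15, a ubiquitin-like protein, was 49.8 CPM and 11.5 to 22.0 CPM. TAP1, the peptide transporter that lies beside PSMB9 and shares exon bases with it, was 81.4 CPM in piglet 21 and 42.1 to 57.1 CPM in the others. PSMB8, at 7.33 CPM, was lower in piglet 21 than in wild-type piglets 5 and 23 and knockout piglet 18, and PSMB9, at 2.32 CPM, was level with knockout piglet 18 at 2.31 CPM. Piglet 18 was the library with high leukocyte markers, such as the leukocyte phosphatase PTPRC (12.4 CPM, against 1.52 to 4.21 CPM in the other 7). The lymphocyte genes CD3D, CD3E, CD8A and MS4A1 were at most 0.182 CPM in any library. The part of leukocytes in the immunosubunit levels was not tested.

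**Figure D4:**
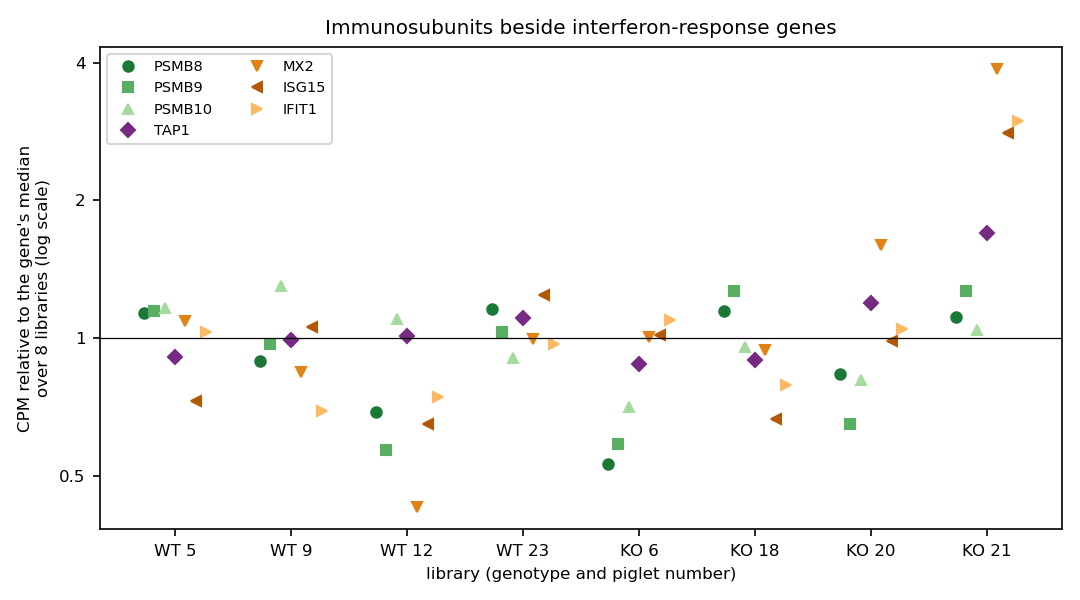
CPM of PSMB8, PSMB9, PSMB10, TAP1, MX2, ISG15 and IFIT1 in each library, relative to the gene's median over the 8 libraries (log scale). In knockout piglet 21 MX2, ISG15 and IFIT1 lie above all other libraries and TAP1 less far above them, while the immunosubunits stay within their range in the other libraries or level with its top.

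Among the activators, PSME2, the beta subunit of the interferon-inducible PA28 ring, had the smallest p of all members. PSME2 (ENSSSCG00000002004, plus strand of chromosome 7 from 75153774 to 75159030) was 46.8, 48.0, 37.6 and 47.1 CPM in the wild type. In the knockout it was 28.5, 32.6, 31.5 and 35.7 CPM. All 4 knockout values lay below all 4 wild-type values, and wild-type piglet 12 and knockout piglet 21 were the nearest pair. The means were 44.9 ± 4.89 and 32.1 ± 2.98 CPM (SD, n = 4 each). The log2 fold change was -0.49 ± 0.11, or 71.4% of the wild-type level. The unadjusted p was 0.00131. The adjusted p was 0.326 in edgeR, 0.0846 in limma and 0.0129 in DESeq2, so the call depended on the tool. Across all alternatives the log2 fold change stayed between -0.57 and -0.43, and the adjusted p ranged from 0.0129 to 0.762. The model shares 57.2% of its exon bases with RNF31 on the opposite strand, which had a log2 fold change of -0.15 ± 0.09.

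PSME1, the alpha subunit of the same ring and its neighbour on the chromosome (ENSSSCG00000002006, minus strand of chromosome 7 from 75160765 to 75164810), had overlapping groups. It was 7.69, 9.02, 10.9 and 9.26 CPM in the wild type and 10.3, 7.22, 8.50 and 8.28 CPM in the knockout. The log2 fold change was -0.10 ± 0.16 (edgeR adjusted p = 0.807). It ranged from -0.20 without knockout piglet 6 to -0.02 without wild-type piglet 12. Per length, PSME1 was 28.3 ± 7.39% of PSME2 in the wild type and 36.6 ± 8.68% in the knockout (SD, n = 4 each), a difference that was not tested. PSME1 shares 60.1% of its exon bases with EMC9 and FITM1, and reads on such bases may have been dropped or split. PSME3, which forms the nuclear PA28 ring and is not induced by interferon, was at -0.07 ± 0.08, and PSME4, the single-chain activator PA200, at -0.04 ± 0.07. PSMF1, a regulator first described as a proteasome inhibitor, was on the higher side, at 0.14 ± 0.10 (edgeR adjusted p = 0.576).

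The assembly chaperones included another member whose groups did not overlap. PSMD5 (ENSSSCG00000005507, minus strand of chromosome 1 from 260846408 to 260868735), a chaperone that holds the ATPase base before it joins the core, was 73.0, 81.2, 68.0 and 65.9 CPM in the wild type. In the knockout it was 58.9, 52.5, 45.1 and 63.6 CPM. The log2 fold change was -0.39 ± 0.12 (edgeR adjusted p = 0.372; DESeq2 adjusted p = 0.127), and its model overlaps no other gene's exons. PSMD10, a further chaperone of the base, was at -0.31 ± 0.16, and PSMD9 at 0.06 ± 0.10. The chaperones of the 20S core were negative in 3 of 3 genes. PSMG3 was 29.5, 40.4, 28.7 and 38.1 CPM in the wild type and 23.8, 30.7, 26.1 and 24.9 CPM in the knockout. Its log2 fold change was -0.37 ± 0.14, with an edgeR adjusted p of 0.409. Knockout piglet 18 lay above wild-type piglets 5 and 12, so its groups overlapped. PSMG2 and PSMG4 were at -0.26 ± 0.13 and -0.22 ± 0.13, and PSMG4 shares 73.2% of its exon bases with SLC22A23 on the opposite strand. Among the genes that share only the prefix, PSMC3IP was 3.87, 4.08, 2.61 and 4.0 CPM in the wild type and 2.23, 2.31, 2.67 and 2.46 CPM in the knockout (log2 fold change -0.59 ± 0.21, edgeR adjusted p = 0.406), and PSME3IP1 was at 0.07 ± 0.07.

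**Figure D5:**
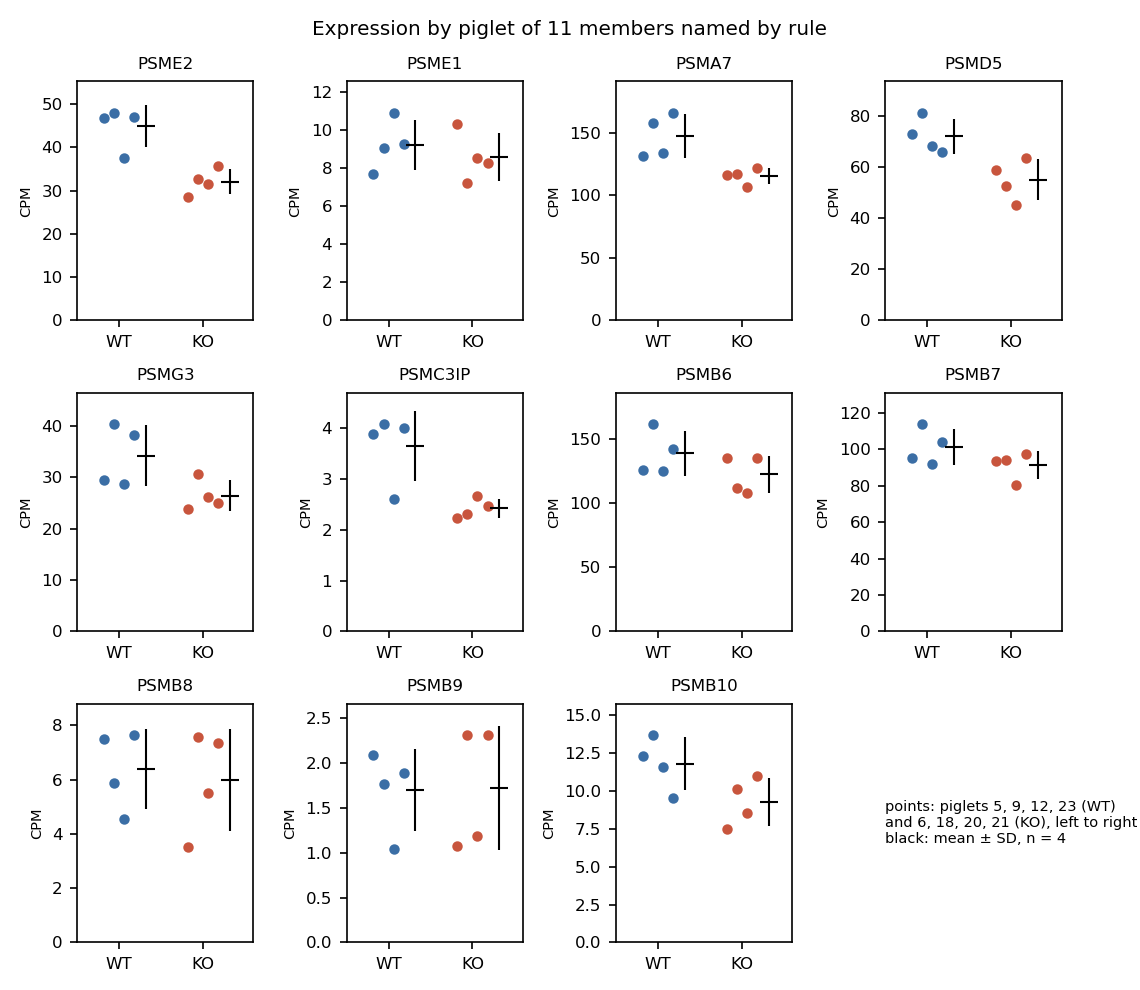
CPM by piglet of the 11 members named by the rule on active and inducible subunits, p and overlap (points, wild-type piglets 5, 9, 12, 23 and knockout piglets 6, 18, 20, 21 from left to right; black bars are mean ± SD, n = 4). The groups do not overlap in PSME2, PSMA7 and PSMD5 and overlap in the other 8.

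Other genes of the pathway showed no call either. Of 8 tested genes that bind or assemble the proteasome without a PSM name, 6 were negative (median -0.10), and 0 had an adjusted p under 0.05. POMP, which guides the joining of the core's rings, was at -0.16 ± 0.10, and USP14, the deubiquitinase that docks on the base, at -0.18 ± 0.08 (unadjusted p 0.0491). UBE3C, a ubiquitin ligase that docks on the proteasome, was at 0.25 ± 0.10 (unadjusted p 0.0360). The ubiquitin receptor ADRM1 is listed at 0 in every library. Whether this comes from its expression, its gene model or the counting was not tested. Of 15 genes for ubiquitin and its delivery, 9 were negative (median -0.03), and the shuttle factor UBQLN4 had the smallest p, at -0.25 ± 0.10 (edgeR adjusted p = 0.430). NFE2L1, the transcription factor that raises proteasome genes when proteasome activity is low, was 202 to 258 CPM in wild-type and 230 to 267 CPM in knockout piglets (0.14 ± 0.10). Its small partner MAFF was at 0.64 ± 0.21, on 7.45 to 12.8 CPM in the wild type and 11.3 to 18.8 CPM in the knockout (edgeR adjusted p = 0.402). MAFG, a further small partner, was at 0.10 ± 0.15. Together with NFE2L2 and NGLY1, 4 of these 5 genes were positive and 1 negative (median 0.10). Of 8 genes for class I antigen presentation and its control, 5 were positive (median 0.09), and none had an unadjusted p under 0.05. Knockout piglet 21 was the highest in 7, and without it 6 of the 8 were negative, with a median of -0.15.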

How the data were processed

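The table the authors deposited holds unnormalized counts of reads for each gene, arranged per the file headers as featureCounts writes them. The submitters' processing notes list STAR 2.4.0 and, without saying what each did, Subread 1.5.0-p3, featureCounts, FastQC, DESeq2 and HTSeq. Genome build and strand setting are not given in the sources used here, so reads on overlapping models are uncertain. Only the 25880 pig genes were used (at least 99.9982% of each library's reads). Symbols came from a table of gene names or, marked as such, from an overlap of at least 50% of both spans with RefSeq genes of Sscrofa11.1. Of 12599 known genes matched this way, 94.6% received their own symbol.

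Counts were tested with edgeR 4.0.16 in R 4.3.3 (TMM, default filter, genotype as factor, quasi-likelihood, Benjamini-Hochberg over 17175 genes). SEs were derived from the F statistic. In simulated data for this comparison (17022 genes), edgeR called 28% of genes changed 1.5-fold and 54% of those changed 2-fold. Genes simulated without a change made up 4.26% of the calls. The simulation drew each gene independently, without shifts shared between genes. The members also had a smaller median SE than all genes tested (0.10 against 0.16). These shares therefore need not hold for the members. DESeq2 1.42.0 and limma 3.58.1, other scalings and filters and the omission of libraries were alternatives. RPKM used the length column that the authors deposited (other information in bases, equal to the merged exons).

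Members and lists were chosen with earlier results of these data known. Values by library are given for the active and inducible subunits, PSME1 and PSME2, and members with an unadjusted p under 0.05 or no overlap between groups, and for PSMD14 and PSMD7, picked after their values were seen.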

Additional observations from a re-analysis of the deposited data

Results flagged for a closer look

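In 92 groups of 4 libraries (46 members, each genotype), 4 had 1 library far from the other 3 by Dixon's gap ratio (95% critical value for 4 values), where chance flags about 1 in 20 groups. All 4 were wild-type libraries. PSMD7 was 66.6 CPM in wild-type piglet 12 and 48.3 to 50.4 CPM in the other wild-type piglets. PSME2 was 37.6 CPM in the same piglet, beside 46.8 to 48.0 CPM in the remaining wild-type piglets, and it lay nearest to the knockout values. PSMC3IP was 2.61 CPM in piglet 12, beside 3.87 to 4.08 CPM. PSMD3, a scaffold subunit of the 19S lid, was 140 CPM in wild-type piglet 9, beside 119 to 122 CPM.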

How the results depend on the processing

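The number of genes called over the whole table was 1 in edgeR, 219 in DESeq2, 11 in limma with sample quality weights, 2 without wild-type piglet 5 and knockout piglet 18, and 0 to 16 when each library was left out in turn (16 without wild-type piglet 12). The number of proteasome members called was 0 in every alternative except DESeq2, where it was 1. CFTR kept its direction, but its edgeR adjusted p was 0.122 without knockout piglet 6 and 0.0544 without knockout piglet 20. PSMB8 changed sign without wild-type piglet 23 (0.0022) and without knockout piglet 6 (0.09), with a range of -0.24 to 0.09 when each library was left out. PSMB9 changed sign with upper-quartile scaling (-0.0037), with limma (-0.10), without wild-type piglet 5 and knockout piglet 18 (-0.05), and when single libraries were left out (-0.16 to 0.19). The cause was not tested. PSMB6, PSMB7, PSMB10, PSME1, PSME2, PSMA7, PSMD5, PSMC3IP, PSMG3, PSMD14, PSMD7 and PSMD2 kept their direction in all 15 alternatives. The share of members with a negative log2 fold change ranged from 34 to 39 genes, with 34 without wild-type piglet 9 and 34 without knockout piglet 20. The median of the immunosubunits turned from -0.10 to 0.09 without knockout piglet 6 and ranged down to -0.24 without wild-type piglet 12. That of the non-ATPase subunits ranged from -0.08 to 0.00 when each library was left out. No paired analysis was made, since the labels give no litter by which piglets could be paired. With an SE near 0.10 in log2, differences of the size seen in most subunits were not detectable over all genes.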

Other observations

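ERAP1, the aminopeptidase that trims peptides made by the proteasome (ENSSSCG00000014171, minus strand of chromosome 2 from 103380001 to 103408759, in the table's coordinates), fell into separate levels within each genotype. In the order of piglets 5, 9, 12 and 23 the wild type had 7, 356, 6 and 547 reads. The knockout had 430, 5, 8 and 580 reads in the order of piglets 6, 18, 20 and 21. The levels were 0.168, 11.3, 0.145 and 12.7 CPM against 9.79, 0.139, 0.182 and 13.7 CPM. Each genotype thus held 2 piglets at most 0.182 CPM and 2 at 9.79 CPM or more. The log2 fold change between genotypes was -0.02 ± 1.54 (SE), with an edgeR adjusted p of 0.997. ERAP1 was singled out after its values were seen.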
